A study of Gallus gallus with 6 samples.

Results

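The HOX cluster genes are the homeobox genes of the A, B, C and D clusters, and they were taken here as every gene whose single symbol in the array's annotation is HOX, a cluster letter and a number. This rule found 29 genes measured by 59 probe sets, out of 13008 named genes and 37690 probe sets in all, and no set was left out for low signal. Cluster A had 10 genes and 25 sets, cluster B 9 genes and 17 sets, cluster C 4 genes and 8 sets, and cluster D 6 genes and 9 sets. The induced samples were chick epiblast from the extraembryonic border of the embryo (area opaca) that had lain for 12 hours against lateral head mesoderm grafted from HH6 embryos into HH4- hosts. The control samples were area opaca from the opposite side of the host, where no graft had been placed. The study set them side by side to find transcripts that respond when head mesoderm turns this epiblast into progenitors of the sensory placodes. Each of the 3 induced and 3 control samples was read on 1 Affymetrix array. The sources used here give neither the strain nor the number of embryos behind a sample, and the p-values measure only the spread between these samples.

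HOX proteins are homeodomain transcription factors that give cells their position along the head-to-tail axis. In vertebrates the genes of a cluster are switched on in the order in which they lie on the chromosome, so that low-numbered paralogs come on first and reach the hindbrain, while high numbers mark the trunk and tail. The ectoderm of the rostral head, where most placode progenitors form, lies in front of the HOX domains. Retinoic acid, WNT and FGF signals and the CDX factors are known to switch the clusters on, PBX and MEIS proteins bind DNA together with HOX proteins, and Polycomb proteins keep silent clusters shut.

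Values are given in 2 forms: the deposited signal in units of the authors' MAS5 output, and log2(signal + 16) after all arrays had been brought to a common distribution. A difference on that log2 scale, induced minus control, is called the log2 fold change, and it understates the change of weak genes. Arrays differed in brightness, with median signals of 18.35, 8.3 and 7.5 units in induced samples 1 to 3 and 17.7, 7.7 and 9.6 units in control samples 1 to 3. Under 16 units lay 46.9% to 63.7% of the probe sets of an induced array and 47.9% to 62.8% of those of a control array. Control sample 2 stood nearer to the induced samples than the other controls in several HOX genes, and its values are given beside each.

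HOX transcripts of the early paralog groups were measurable in area opaca, and the brightest of them had lower mean values in induced epiblast, with log2 fold changes down to -1.66 (HOXA4). The 17 sets that reached 16 units on some array all did so on a control array, and 7 on an induced array. Such a choice by brightness makes values below 0 likely, so it adds no support. The 42 sets under 16 units on every array had 21 below 0 and 21 above 0. None of the 59 sets passed limma's test at an adjusted p under 0.05 over all probe sets, where 0.0478% of all sets passed (0.0345% as higher and 0.0133% as lower). The lowest adjusted p was 0.119 for HOXB8. At an unadjusted p under 0.05, 15 HOX sets (25.4%) of 14 genes were lower in induced samples, against 4.06% of all probe sets, and 1 was higher, against 3.86% of all. Of the 59 sets, 38 (64.4%) had a log2 fold change below 0, against 48.6% of all probe sets. After normalization, induced and control values did not overlap, with induced lower, in 11 sets (18.6%, against 6.04% of all). They did not overlap with induced higher in 2 sets, against 6.64% of all. The median log2 fold change was -0.07 over the HOX sets and 0.01 over all sets. The count of 15 fell to 8 without induced sample 1, to 6 without induced sample 2, to 9 without control sample 1 or control sample 3, and to 4 in the 4 dimmer arrays of repeats 2 and 3 alone. Fewer arrays weaken the test for every probe set, and all probe sets were not counted in this way on fewer arrays. These falls are therefore not read as a result about the HOX sets. Sets of 1 gene share a transcript and are not independent of each other.

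**Figure D1:**
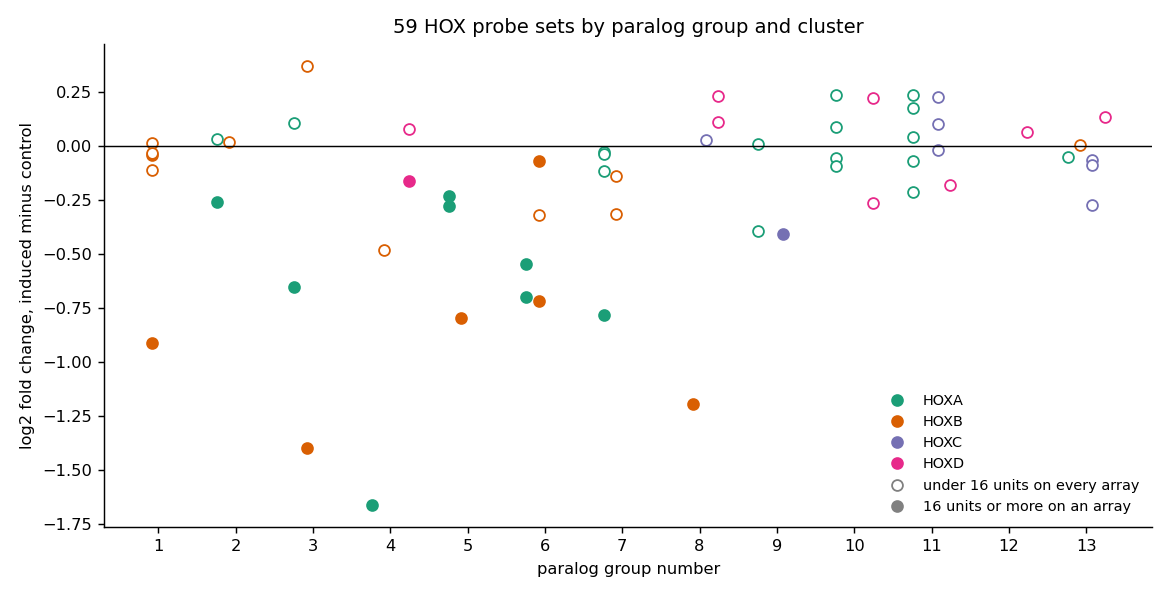
Log2 fold change, induced minus control (y axis), of each of the 59 HOX probe sets against its paralog group number (x axis), coloured by cluster. Filled points reached 16 units on at least 1 array and hollow ones did not. The points furthest below 0 are HOXA4 at -1.66, HOXB3 at -1.40 and HOXB8 at -1.20, and the sets of groups 9 to 13 lie between -0.41 and 0.24.

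By position in the clusters, the 38 sets below 0 comprised 7 of paralog groups 1 to 3, 18 of groups 4 to 8 and 13 of groups 9 to 13. In groups 1 to 3, 7 of 12 sets were below 0, 3 of them at an unadjusted p under 0.05, with a median log2 fold change of -0.04. In groups 4 to 8, 18 of 22 sets were below 0, 9 of them at an unadjusted p under 0.05, with a median of -0.25. In groups 9 to 13, 13 of 25 sets were below 0, 3 of them at an unadjusted p under 0.05, with a median of -0.02. All 9 sets of HOXA4 to HOXA7 and all 8 sets of HOXB4 to HOXB8 were below 0, as were 48.6% of all probe sets. In the same groups 4 to 8, 1 of 4 sets of cluster D and 0 of 1 set of cluster C were below 0. In cluster D, 3 of 9 sets were below 0, with a median of 0.08, and in cluster C 5 of 8, with a median of -0.04. With only the brightest set of each gene, the medians were -0.65 over the 5 genes of groups 1 to 3 and -0.51 over the 12 genes of groups 4 to 8, so the order of these groups turned with the choice of sets. Differences between clusters or paralog groups were not tested.

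Of the 59 sets, 17 reached 16 units on some array, against 21827 of all 37690 sets. All 17 did so on a control array and 7 on an induced array, and 16 of the 17 measured groups 1 to 8. All probe sets were not counted in this way by group, so 17 against 7 is not read as a difference between the groups. HOXC9 was the only set of groups 9 to 13 to reach 16 units, with 17.8 units in control sample 1. The number of HOX sets at 16 units or more was 7, 3 and 4 in induced samples 1 to 3, against 17, 5 and 12 in control samples 1 to 3. Of all probe sets, 46.9%, 60.7% and 63.7% lay under 16 units in induced samples 1 to 3. In control samples 1 to 3 these shares were 47.9%, 62.8% and 58.9%. The deposited units were not normalized between arrays. The samples numbered 1, with the counts of 7 and 17, were also the brightest array of each group, at medians of 18.35 and 17.7 units. The signal summed over all HOX sets was 1092, 363 and 518 units in induced samples 1 to 3, against 2276, 565 and 1433 units in control samples 1 to 3.

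**Figure D2:**
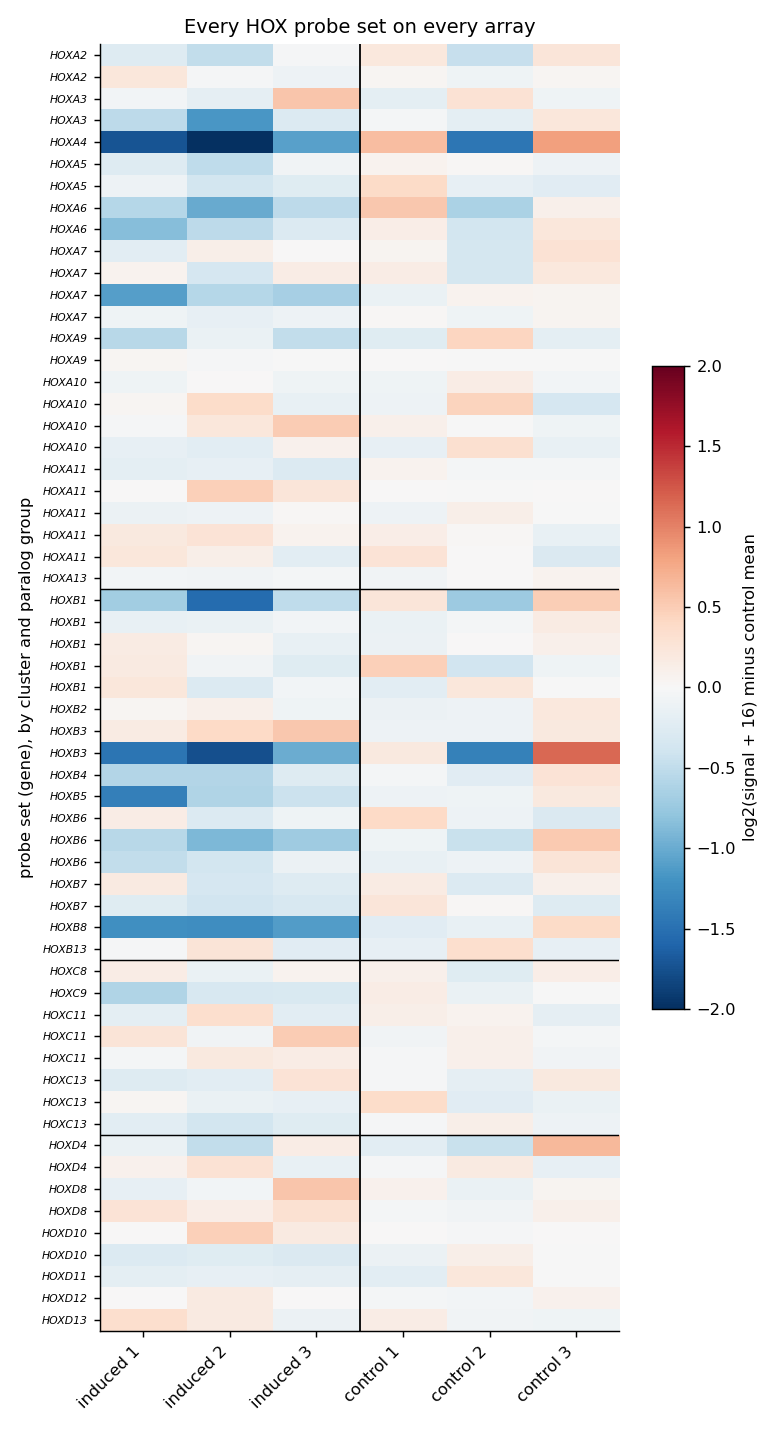
Each of the 59 HOX probe sets (rows, by cluster and paralog group) on each array (columns, induced left of control), coloured by its log2(signal + 16) minus the mean of the 3 control arrays. The rows of HOXA4 and HOXB8 and of the brightest sets of HOXB1 and HOXB3 are blue in the 3 induced columns, and control sample 2 is also blue for HOXA4, HOXB1 and HOXB3.

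Among the hindbrain-level paralogs, HOXB1, which sets the identity of the fourth rhombomere in mouse and chick, had 206.2, 48.8 and 84.2 units in induced samples 1 to 3, against 410.2, 80.9 and 245.3 in control samples 1 to 3. The normalized values averaged 6.84 ± 0.55 in induced and 7.76 ± 0.64 in control samples (SD, n = 3 each), with a log2 fold change of -0.91 (SE 0.343, limma's adjusted p = 0.544). Induced samples 1 and 3 were above control sample 2, so that the groups overlapped. Without induced sample 2 the log2 fold change was -0.60. The 4 other sets of HOXB1 had at most 26.2 units.

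HOXA3, needed in mouse for the derivatives of the third pharyngeal arch and pouch, had 436.2, 131.0 and 184.3 units in induced samples 1 to 3, against 621.0, 227.7 and 373.6 in control samples 1 to 3. After normalization every induced value lay below every control value, with means of 7.93 ± 0.46 in induced and 8.58 ± 0.22 in control samples (SD, n = 3 each). The log2 fold change was -0.65 (SE 0.230, limma's adjusted p = 0.509), and it was -0.40 without induced sample 2. The other set of the gene had at most 10 units and a log2 fold change of 0.11.

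HOXB3, its paralog in cluster B, had 34.0, 10.5 and 22.1 units in induced samples 1 to 3, against 167.1, 16 and 178.2 in control samples 1 to 3. Control samples 1 and 3 were well above the rest, while control sample 2 lay among the induced samples. The log2 fold change was -1.40 (SE 0.512, limma's adjusted p = 0.528), and it was -2.11 without control sample 2 and -0.83 without control sample 3. A further set of HOXB3, with 0.2 to 6.4 units over all arrays, had a log2 fold change of 0.37 and was the single HOX set higher at an unadjusted p under 0.05. HOXA2, which patterns the second pharyngeal arch, had 27.5, 8.7 and 14.2 units in induced samples, against 47.1, 8.5 and 26.9 in control samples, with overlapping groups and a log2 fold change of -0.26 (SE 0.245), which ranged from -0.50 to -0.14 with single samples left out. The set of HOXB2 had at most 4.0 units.

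In the middle of the clusters HOXA4, a gene of the caudal hindbrain and neck level, gave the HOX set with the log2 fold change furthest from 0. It had 68.9, 20.7 and 45.1 units in induced samples 1 to 3, against 470.1, 36.9 and 272.7 in control samples 1 to 3. The normalized values averaged 5.89 ± 0.54 in induced and 7.56 ± 1.26 in control samples (SD, n = 3 each). The log2 fold change was -1.66 (SE 0.524, limma's adjusted p = 0.438). As with HOXB3, control sample 2 fell within the range of the induced samples. With single samples left out the log2 fold change ranged from -2.40, without control sample 2, to -1.26. Limma's adjusted p then ranged from 0.151 to 0.940. HOXB4 had 0.6, 0.2 and 3.1 units in induced samples, against 12.5, 3.3 and 11.9 in control samples. Its groups did not overlap after normalization, at a log2 fold change of -0.48 (SE 0.162), but no value reached 16 units. HOXD4 had 22.2, 5.0 and 12.9 units in induced samples, against 19.0, 5.4 and 31.2 in control samples, and its log2 fold change of -0.16 (SE 0.296) became 0.17 without control sample 3.

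HOXB8, a gene of the trunk that in mouse patterns the spinal cord, gave the lowest p of the family. It had 1.7, 0.4 and 1.3 units in induced samples 1 to 3, against 28.3, 13.4 and 31.8 in control samples 1 to 3. All 3 induced values were at the low end of the scale and all 3 controls were above them, control sample 2 included. The normalized values averaged 4.11 ± 0.06 in induced and 5.30 ± 0.34 in control samples (SD, n = 3 each). The log2 fold change was -1.20 (SE 0.198, 95% interval -1.64 to -0.76, limma's adjusted p = 0.119). HOXB8 passed with each array centred on its median (limma's adjusted p = 0.00426) and with 1 probe set per gene, over 13008 genes (limma's adjusted p = 0.0422). With single samples left out its limma's adjusted p was 0.144 to 0.753.

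HOXA7, a trunk-level paralog, had 0.3, 5.2 and 4.0 units in induced samples 1 to 3, against 25.1, 14 and 17.7 in control samples 1 to 3, and the groups did not overlap. Its log2 fold change was -0.78 (SE 0.190, limma's adjusted p = 0.312). The 3 other sets of HOXA7 stayed at or under 12.7 units, with log2 fold changes of -0.12 to -0.03. HOXB5 had 0.7, 8.8 and 10.1 units in induced samples, against 37.5, 16.1 and 28.8 in control samples, without overlap, at a log2 fold change of -0.80 (SE 0.259, limma's adjusted p = 0.457). Without induced sample 1 it was -0.49.

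HOXB6 had 9.2, 0.8 and 2.4 units in induced samples, against 22.7, 5.1 and 26.8 in control samples, at a log2 fold change of -0.72 (SE 0.239, limma's adjusted p = 0.466), or -0.47 without control sample 3. This set is 1 of 7 HOX sets whose names carry an A, the mark of a design in antisense orientation, so which strand it reads is not settled here. The other 2 sets of HOXB6 had log2 fold changes of -0.32 and -0.07.

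HOXA6 was read by 2 sets that gave a like picture. The brighter one had 9.7, 0.2 and 4.6 units in induced samples, against 51.3, 3.4 and 16.8 in control samples, and the other 4.8, 5.6 and 8.1 units in induced samples, against 34.3, 7.2 and 21.1 in control samples. Their log2 fold changes were -0.70 (SE 0.278) and -0.55 (SE 0.225), both at an unadjusted p under 0.05, while control sample 2 lay within the induced range. HOXA5, which in mouse is needed for the lung and the neck vertebrae, passed 16 units only in control sample 1, and its 2 sets had log2 fold changes of -0.28 (SE 0.160) and -0.23 (SE 0.166).

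HOXB7 stayed at or under 14.9 units, with log2 fold changes of -0.31 (SE 0.138) and -0.14 (SE 0.171). The paralogs of HOXB8 in clusters C and D gave values near 0 or above. HOXC8 had 10.7, 1.9 and 3.7 units in induced samples, against 9.3, 0.7 and 5.3 in control samples, at a log2 fold change of 0.03 (SE 0.145). The 2 sets of HOXD8 had at most 8.3 units, with log2 fold changes of 0.11 (SE 0.178) and 0.23 (SE 0.107). The groups of the second did not overlap after normalization, but did in deposited units.

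Since both samples numbered 1 were brighter than the other 4, the values were also taken within each brightness class, the pair having 1 sample a group and no test. In the pair of samples numbered 1, the log2 fold change was -2.34 for HOXA4, -1.66 for HOXB3, -1.26 for HOXB5, -0.99 for HOXB8, -0.97 for HOXA7 and -0.92 for HOXB1. In the other 4 samples it was -1.26 for HOXA4, -1.19 for HOXB3, -0.50 for HOXB5, -1.10 for HOXB8, -0.58 for HOXA7 and -0.87 for HOXB1. HOXA3 had -0.49 in samples 1 and -0.72 in the rest, HOXB4 -0.55 and -0.36, HOXB6 -0.48 and -0.70, HOXC9 -0.74 and -0.19, and HOXA2 -0.46 and -0.14. HOXD4 was the exception in direction, with 0.07 and -0.25. Most of these sets had been singled out by their p over the same arrays, so their directions add no support. Of all 59 HOX sets, 36 (61%) were below 0 in the bright pair, against 48.9% of all probe sets, and 37 (62.7%) in the other 4 samples, against 48.4% of all.

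**Figure D3:**
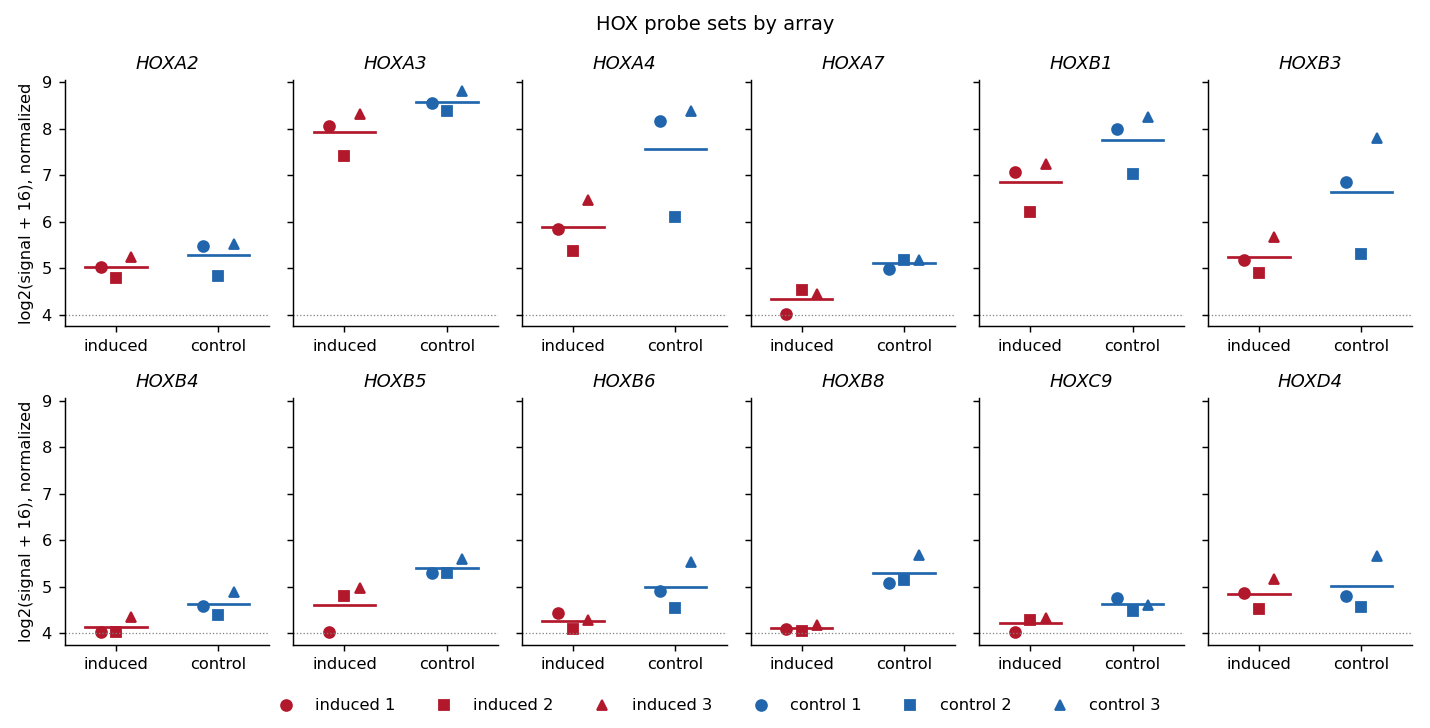
Normalized log2(signal + 16) of 12 HOX probe sets (y axis) in the 3 induced (red, left) and 3 control (blue, right) samples, with a symbol for each sample number and a line at the group mean. The dotted line marks a signal of 0 units before normalization. HOXA3, HOXA7, HOXB4, HOXB5, HOXB6, HOXB8 and HOXC9 show no overlap of the groups. Control sample 2 is the lowest control for every set shown except those of HOXA7, HOXB5 and HOXB8.

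The posterior groups 9 to 13, which mark the caudal trunk, tail and limb buds, were near the floor of the arrays. HOXC9, a gene of the thoracic level, had 0.6, 2.6 and 2.8 units in induced samples 1 to 3, against 17.8, 4.4 and 7.3 in control samples 1 to 3, without overlap, at a log2 fold change of -0.41 (SE 0.143, limma's adjusted p = 0.509). The other 24 sets had at most 15.5 units on any array. These measured HOXA9, HOXA10, HOXA11, HOXA13, HOXB13, HOXC11, HOXC13, HOXD10, HOXD11, HOXD12 and HOXD13. HOXD13, which shapes the digits, had the brightest of them, with 15.5, 4.9 and 1.7 units in induced samples, against 10, 2.0 and 2.6 in control samples. HOXA9 had 5.3, 7.2 and 2.7 units in induced samples, against 12.4, 15.1 and 7.3 in control samples, at a log2 fold change of -0.39 (SE 0.216), and overlapped. A set of HOXC13, a regulator of hair and feather keratins, and a set of HOXD10 were lower at an unadjusted p under 0.05 with at most 8.6 and 3.8 units, at log2 fold changes of -0.28 and -0.26. Sets of HOXA11 and HOXD10 had log2 fold changes on either side of 0 within the same gene, from -0.21 to 0.24 and from -0.26 to 0.22. The HOXD10 set above 0 carries an A in its name, so which strand it reads is not settled here.

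Among 22 genes known to set HOX expression, 17 were measured, and 0 passed limma's test over all probe sets, where 0.0769% of named genes passed as higher and 0.0384% as lower. At an unadjusted p under 0.05, 4 were lower and 1 higher, against 5.2% and 4.99% of named genes, and the list's median log2 fold change was 0.06. CDX4, a caudal homeobox factor that activates central HOX genes, had 459.3, 58.5 and 199.2 units in induced samples 1 to 3, against 1533.9, 388.2 and 568.6 in control samples 1 to 3. Induced sample 1 was above control sample 2 in these units, while the normalized values did not overlap. The log2 fold change of CDX4 was -1.79 (SE 0.436, limma's adjusted p = 0.312). CDX2, a factor of the same family, had 216.6, 53.0 and 101.9 units in induced samples, against 342.7, 203.1 and 167.0 in control samples. Its log2 fold change was -0.93 (SE 0.288, limma's adjusted p = 0.429), and 2 further sets under 16 units gave -0.26 and -0.06.

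CRABP1, a binding protein for retinoic acid, had 67.0, 20.0 and 16.3 units in induced samples, against 102.8, 38.7 and 58.3 in control samples. These units overlapped, while the normalized values did not. The log2 fold change of CRABP1 was -0.76 (SE 0.206, limma's adjusted p = 0.355). CYP26C1, an enzyme that breaks retinoic acid down, had 67.9, 93.1 and 5.0 units in induced samples, against 16.5, 3.0 and 2.7 in control samples, at a log2 fold change of 1.33 (SE 0.486, limma's adjusted p = 0.526). Its levels were high in induced samples 1 and 2 only. A further set of CYP26C1 gave 1.41, and the remaining set, with at most 2.2 units, gave 0.05.

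The partners and the chromatin regulators of the HOX genes gave small differences. Of 9 genes for PBX, MEIS and related PKNOX factors, 6 were measured, with a median log2 fold change of 0.20. By limma 0 passed, and 0 had an unadjusted p under 0.05, with each gene read by its brightest set. MEIS2 had 144.1, 158.7 and 162.1 units in induced samples, against 130.2, 49.4 and 184.7 in control samples, with a log2 fold change of 0.53 (SE 0.427). PBX3 had 0.35 (SE 0.168), PBX4 0.24 (SE 0.197) and PKNOX1 -0.16 (SE 0.186). This PKNOX1 set carries an A in its name, so which strand it reads is not settled here. Further sets of PKNOX1, under 16 units on every array, gave -0.10 and -0.44, the latter at limma's unadjusted p of 0.036. Of 17 Polycomb, Trithorax and related genes, 13 were measured, with a median of 0.08, and again 0 passed by limma and 0 had an unadjusted p under 0.05. ASH1L, a histone methyltransferase of the Trithorax group, had -0.43 (SE 0.201), and GMNN, the gene for geminin, 0.23 (SE 0.133). The Polycomb genes EED and PCGF2 had 0.33 (SE 0.235) and 0.22 (SE 0.166), with at most 7.9 units for PCGF2.

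Genes listed as neighbours of the clusters offered a comparison within the same chromosome regions. Of 19 such genes, 16 were measured, 8 above and 8 below 0, with a median log2 fold change of -0.01. For TTLL6 (0.19) and CALCOCO1 the gene order used here gave no HOX neighbour. By limma 0 of the 16 passed, and 1 of the 16 was lower at an unadjusted p under 0.05, against 5.2% of named genes. This 1 gene was SKAP2, an adaptor of immune cell signalling. SKAP2 had 201.8, 59.8 and 88.7 units in induced samples, against 341.5, 114.2 and 151.4 in control samples. These units overlapped, while the normalized values did not. The log2 fold change of SKAP2 was -0.68 (SE 0.233, limma's adjusted p = 0.491), and its other set gave -0.93. HIBADH had -0.18 (SE 0.105). SKAP1 beside HOXB1 had 0.21 (SE 0.137) and CBX1 0.19 (SE 0.113).

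Markers of other tissues moved in the same arrays. In bulk samples, fewer cells of a type and less RNA per cell cannot be told apart. Of 18 measured markers of blood and endothelium, 3 fell by limma, KDR, TAL1 and LMO2, where 0.0384% of named genes did. At an unadjusted p under 0.05, 14 were lower, against 5.2% of named genes. The list's median log2 fold change was -1.05, its summed signal was 772 to 2813 units in induced against 3249 to 6776 units in control samples, and 9 to 17 of its markers reached 16 units in induced samples, against 15 to 17 in control samples. KDR, a receptor of endothelial precursors, had 43.3, 16.7 and 26.2 units in induced samples, against 252.6, 90.2 and 136.9 in control samples (log2 fold change -1.84, SE 0.216, limma's adjusted p = 0.0325). TAL1 and LMO2, transcriptional regulators of blood precursors, had -1.74 (limma's adjusted p = 0.0376) and -2.18 (limma's adjusted p = 0.0463), and HBZ, an embryonic globin gene, -1.52 (limma's adjusted p = 0.203). Further, dimmer sets of these genes gave smaller changes, -0.37 to -0.21 for KDR, -0.45 to -0.03 for TAL1 and -0.75 for LMO2. KDR and LMO2 lost their calls without any single sample other than induced sample 3, and TAL1 without any 1 of the 6.

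For yolk sac endoderm, 18 of 18 markers were measured and 0 passed by limma. At an unadjusted p under 0.05, 9 were lower, against 5.2% of named genes. The median of these markers was -0.70. Their summed signal was 1921 to 5451 units in induced against 2807 to 7976 units in control samples, 11 to 16 of them reached 16 units in induced samples, against 13 to 17 in control samples, and RBP4 stayed under 16 units on every array. TTR, the gene for transthyretin, had -1.53, HNF4A -1.04, APOA1 -1.60 and CUBN -1.63, with limma's adjusted p of 0.143 to 0.361. Further, dimmer sets gave -0.57 for TTR, -0.11 and 0.12 for HNF4A, -1.45 for APOA1 and -0.12 to 0.25 for CUBN.

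Relative to the control mean, the HOX sets of groups 1 to 8 averaged -0.32, -0.46 and -0.19 in induced samples 1 to 3, against 0.07, -0.24 and 0.18 in control samples 1 to 3. Control sample 2 was thus lower than induced sample 3. These HOX averages take every set, dim ones included, while the marker lists take only the brightest set of each gene. The sizes of the 2 kinds of average are therefore not compared. With only the brightest set of each gene, the HOX medians were -0.65 for groups 1 to 3 and -0.51 for groups 4 to 8. Blood and endothelium markers averaged -0.98, -1.39 and -0.67 in induced samples, against -0.03, 0.11 and -0.08 in control samples. Yolk sac endoderm markers averaged -0.62, -0.96 and -0.79 in induced samples, against -0.08, -0.50 and 0.58 in control samples, with control sample 2 the lowest control here too. The part of either tissue in the HOX values was not tested.

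The medians of other tissue lists were nearer 0 or above it. Under 16 units on every array stayed 4 of 8 lateral and 5 of 8 paraxial markers, against 0 of 18 blood and endothelium markers. They included FOXF1, MSGN1 and MEOX2, and such weak differences are understated here. The same held for 2 of 8 head mesoderm markers (TBX1 among them), 3 of 6 neural plate markers (NCAM1 and SOX1 among them) and 1 of 7 preplacodal markers. Lateral and extraembryonic mesoderm markers had a median of -0.08 over 8 genes, with GATA5 at -0.53, HAND1 at -0.27, BMP4 at 0.21 and FOXF1 at 0.10, and markers of paraxial and posterior mesoderm a median of 0.00 over 8 genes, with MESP1 at 0.38, MSGN1 at -0.10, TBXT at 0.32 (-0.20 without induced sample 2) and MEOX2 at -0.17. By limma 0 genes of either list passed, and 0 and 1 had an unadjusted p under 0.05, where 5.2% of named genes were lower and 4.99% higher. These counts use the brightest set of each gene. Dimmer sets of BMP4 gave 0.57, at limma's unadjusted p of 0.013, and 0.39, and a dimmer set of GATA5 gave -0.42. The 8 markers of head mesoderm, the tissue of the graft, had a median of 0.15, with 5 above and 3 below 0. By limma 2 rose, where 0.0769% of named genes did: ISL1 by 2.79 (adjusted p = 0.0150) and NKX2-5 by 1.90 (adjusted p = 0.0379). A further, dimmer set of ISL1 rose by 2.87 (limma's adjusted p = 0.00324). TBX1 had 0.19 and PRRX1 0.69 (-0.12 without control sample 2). Neural plate markers had a median of 0.35 over 6 genes, 0 of which passed by limma and 1 had an unadjusted p under 0.05, with NCAM1 at 0.47, ZIC2 at 1.51, ZIC1 at 1.15 and SOX1 at 0.24. ZIC1 rested on induced sample 2, with 6.9, 124.5 and 0.8 units in induced samples, against 0.9, 1.8 and 0.5 in control samples, and had 0.11 without it. ZIC2 had 143.6, 246.0 and 3.3 units in induced samples, against 25.4, 9.5 and 11 in control samples, so that induced sample 3 was the lowest of all, and had 0.59 without induced sample 2 and 2.61 without induced sample 3. Further, dimmer sets gave 0.04 for ZIC2, 0.68 for ZIC1, and -0.04 and 0.07 for NCAM1. Preplacodal markers had a median of 1.23 over 7 genes, of which EYA2 rose by limma, by 2.46 (adjusted p = 0.0349), and OTX2 had 2.08, IRX1 2.47 and DLX6 1.14. The calls of NKX2-5 and EYA2 were lost without any single sample other than induced sample 3. That of the brighter ISL1 set was lost without induced sample 1, induced sample 2 or control sample 3. The dimmer ISL1 set was not followed singly.

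**Figure D4:**
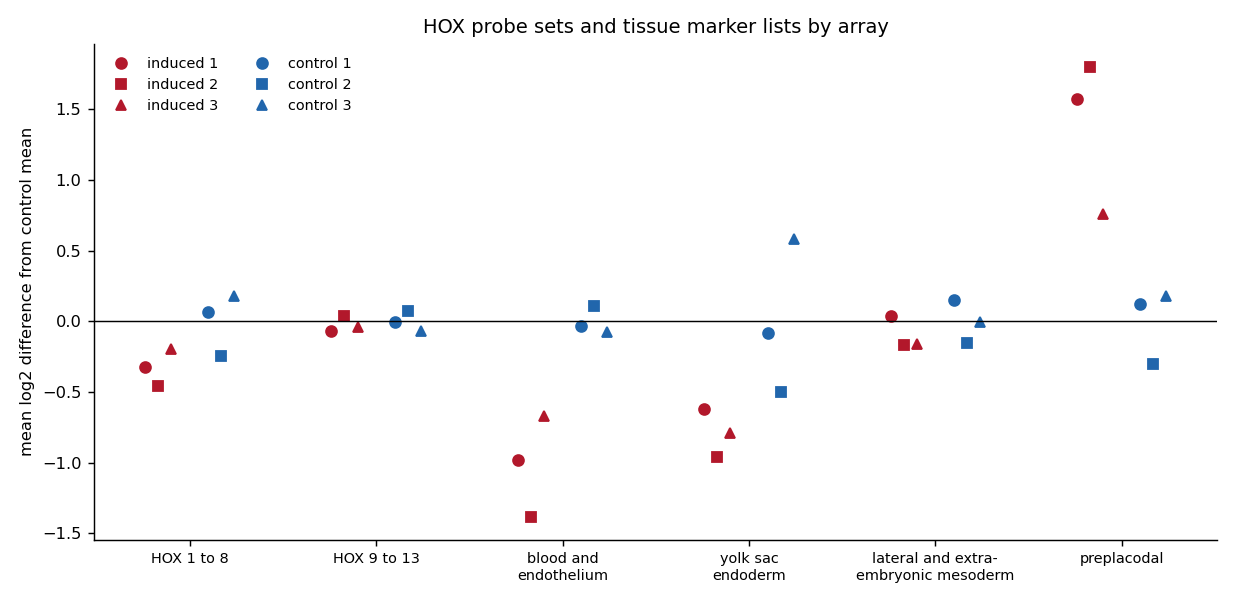
Mean difference from the control mean, in log2(signal + 16), of HOX probe sets and of tissue marker lists (x axis) in each induced (red, left) and control (blue, right) sample. HOX means take every probe set and list means the brightest set of each gene, so their sizes are not compared. Blood and endothelium markers are lower in every induced than in every control sample, preplacodal markers are higher in every induced sample, and HOX groups 1 to 8 overlap at control sample 2.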

How the data were processed

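Per the labels' protocols, Affymetrix arrays were hybridized with biotin-labelled cRNA. The deposited table gives a linear intensity for every probe set on every array. MAS5 is named in the submitters' processing notes, and the sources used here give neither its version nor its scaling target. Of 37690 probe sets, 27166 had 1 gene symbol in the platform annotation, 177 several and 10347 none. For 26851 sets the symbol was taken from RefSeq, whether or not it differed (assembly GRCg7b, names and gene order only). The 59 HOX symbols were the same in both.

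From the intensities, log2(signal + 16) was quantile normalized. This removes a shift of most genes in 1 direction. The model was fitted to all sets in limma 3.58.1 with R 4.3.3 (trend, group as the only term, Benjamini-Hochberg over all 37690, threshold 0.05), after tests on simulated data. The smallest p that an exact permutation of 3 against 3 arrays allows is 0.1. Lists use the set with the highest mean per gene. Full values are given for HOX sets that passed, had the 8 lowest p or reached 16 units on 3 or more arrays, which made 12. Signals by array of HOXA6, HOXC8, HOXA9 and HOXD13 are also given, outside this rule. Up to 4 genes of lowest p are named per list. The members and lists were chosen with earlier results of these data known. Of the pairs of equal repeat number, deviations from the group means correlated at 0.454, -0.108 and 0.0607, so the numbers were not taken to pair samples. Alternatives changed the pseudocount, normalization, filter, variance model, probe sets, block and samples.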

Additional observations from a re-analysis of the deposited data

How the results depend on the processing

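Across 18 other settings, the 12 HOX probe sets chosen by the rule for full values gave 213 comparisons. Of these, 211 kept their direction and 3 passed, all HOXB8. The settings reused the same arrays, and most of these sets had been chosen by their p there, so the kept directions add no support. The exceptions in direction were HOXD4 without induced sample 2 (0.0085) and without control sample 3 (0.17), over a range of -0.39 to 0.17 with single samples left out. Among genes of the other lists FOXF1 reversed without induced sample 1 (-0.042, range to 0.20) and in the arrays of repeats 2 and 3 alone (-0.051), TBXT without induced sample 2 (-0.20, range to 0.76), MEOX2 without induced sample 2 (0.000306, range from -0.51) and PRRX1 without control sample 2 (-0.12, range to 1.14). Passing HOX sets numbered 0 as reported, and 1 with median centring, with 1 probe set per gene, and with a block for the repeat number without normalization. With single samples left out they numbered 0. HOX sets lower at an unadjusted p under 0.05 numbered 15 as reported, 6 to 14 with single samples left out and 4 in the arrays of repeats 2 and 3. The share of all probe sets at this threshold was not counted on fewer arrays. Over all sets 18 passed (13 higher, 5 lower). This became 0 without normalization, 65 with median centring (24 higher, 41 lower), 1 without the variance trend, 28 over genes, 65 with the block on values not normalized (18 higher, 47 lower), 0 in the arrays of repeats 2 and 3 and 0 to 33 with single samples left out. Of the genes around HOX regulation 0 passed, and 1 (CDX4) with the block on values not normalized. The block on normalized values gave 17 sets in all and 0 HOX sets, lost the calls of TAL1, LMO2, NKX2-5 and EYA2 and added APOA1 (limma's adjusted p = 0.0388). All 6 marker calls (KDR, TAL1, LMO2, ISL1, NKX2-5 and EYA2), each by the gene's brightest set, were lost without normalization and without the variance trend. The call of EYA2 was also lost with a pseudocount of 64 (limma's adjusted p = 0.051). HBZ and OTX2 passed with median centring (limma's adjusted p = 0.0184 and 0.0386), OTX2 also without induced sample 3 (0.0239), and HBZ, TTR and APOA1 with the block on values not normalized (0.0257, 0.0290 and 0.0195). With the block on values not normalized, limma's adjusted p was 0.016 for HOXB8 and 0.00666 for CDX4. Of the induced samples, number 1 correlated best with the control of its own number, but number 2 did so with control sample 3 (0.174) and number 3 with control sample 2 (0.32).

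The median of the HOX sets was -0.07, and -0.35 with a pseudocount of 1, -0.021 with 64, -0.26 over genes, -0.12 in the pair of repeat 1 and -0.13 to -0.053 with single samples left out. It was -0.65 with either filter, each of which kept 17 sets. With the filter at 16 units, all 17 passed on a control array and only 7 on an induced array. Sets kept only through control arrays make a median below 0 likely. The filtered medians, here and for the groups below, therefore add no support. The filter at the 40th percentile used the mean over all 6 arrays. For groups 1 to 3 the median of -0.04 became -0.65 with either filter and over genes. For groups 4 to 8 the median of -0.25 became -0.93 with a pseudocount of 1, -0.084 with 64, -0.71 and -0.70 with the filters at the 40th percentile and at 16 units, and -0.51 over genes. For groups 9 to 13 the median of -0.02 became -0.16 with a pseudocount of 1, -0.23 and -0.41 with these filters (2 and 1 sets), 0.019 in the arrays of repeats 2 and 3, and -0.079 to 0.019 with single samples left out. The cause of these moves was not tested, except that filters leave fewer and brighter sets and the pseudocount scales differences of weak ones. Signals under 16 units limit what can be seen in 42 of the 59 sets.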
